A study of Mus musculus with 36 samples.

Results

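The clustered protocadherins are cell surface adhesion proteins encoded by 3 neighbouring gene clusters, alpha, beta and gamma, on mouse chromosome 18. Members were taken by symbol, as every listed gene named Pcdha, Pcdhac, Pcdhb, Pcdhga, Pcdhgb or Pcdhgc with a number. This gave 47 of the 19426 genes found in either expression table. The table of neural stem cells (NSCs) listed all 47 among 17771 genes, with 5 alpha, 21 beta and 21 gamma members. The table of embryonic stem cells (ESCs) listed 18 among 17036 genes, with 0 alpha, 2 beta and 16 gamma members, and all 18 were also listed in NSCs. RefSeq annotates 58 such genes on the GRCm38.p6 assembly (mm10), of which 14 are alpha, 22 beta and 22 gamma. The 11 not listed in NSCs were 9 alpha genes (among them Pcdhac1), Pcdhb1 and Pcdhga10.

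In neurons each protocadherin gene has its own promoter and first exon. In the alpha and gamma clusters these variable exons are spliced to constant exons shared by the whole cluster, so that every alpha protein, and every gamma protein, carries the same cytoplasmic end. The beta genes have a single coding exon and no constant exons. Individual neurons choose a few alternate promoters at random, by a mechanism in which antisense transcription, DNA demethylation, the insulator protein CTCF and cohesin loop extrusion bring a promoter to a distant enhancer. The C-type genes (Pcdhac1, Pcdhac2, Pcdhgc3, Pcdhgc4 and Pcdhgc5), at the ends of the alpha and gamma clusters, are not chosen at random and follow the cell type. The chosen proteins pair only with their own kind between cells, which lets a neuron tell its own branches from those of others.

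The study compared cells without TET activity with wildtype cells. Tet triple knockout (TKO) cells lack Tet1, Tet2 and Tet3, the dioxygenases that oxidize 5-methylcytosine on the way to DNA demethylation, and Tet wildtype (WT) cells keep all 3. Both were male V6.5 ESCs of mixed 129/C57BL/6 background, and NSCs were made from them in culture. RNA-seq covered 2 TKO and 3 WT lines of NSCs and as many of ESCs. Promoter capture Hi-C (pcHiC), which finds the fragments that captured promoters touch, was run on 1 TKO and 1 WT NSC sample. The NSCs were TKO or WT cells on day 6 of NSC culture after 1 passage. The ESCs were TKO or WT cells preplated for 45 minutes, which leaves feeder cells behind, and then kept on gelatin with serum and LIF for 24 hours. The lines are called independent in the study's design text; the line codes of the TKO samples are the same in both cell types, so each TKO NSC sample has an ESC sample of the same line.

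Values below are normalized counts of each cell type's own table, and log2 fold changes are of TKO over WT on the log2(value + 1) scale, with the standard error (SE) and the Benjamini-Hochberg adjusted p of limma over all genes tested; a gene passed when this p was under 0.05. Reads over the listed genes summed to 41.0 M to 49.1 M per library. Most low counts were even, as counts of both mates are, so read numbers given here can stand for fewer fragments. Counts of markers that rose or fell stand beside 18.2% and 19.5% of all genes tested in NSCs, and 7.29% and 7.02% in ESCs. In NSCs, 10 of 10 radial glia markers were listed, and 0 rose and 8 fell in TKO. Their summed normalized counts were 187536 and 196170 in TKO and 365110 to 377969 in WT. Of 15 neuron markers, 4 rose and 5 fell, with sums of 20857 and 23683 in TKO and 18880 to 23053 in WT. Of 10 feeder and fibroblast markers, 8 rose and 2 fell, with high sums in both genotypes, 137221 and 164340 in TKO and 132111 to 171866 in WT, and of 8 pluripotent cell markers 4 rose and 0 fell, with 2979 and 5084 in TKO and 1071 to 1307 in WT. None of these markers was at 0 in any NSC library. Of 8 tested mesoderm and endoderm markers 3 rose and 1 fell in TKO NSCs, with sums of 4977 and 5211 in TKO and 3698 to 3865 in WT. Of 7 astrocyte markers 0 rose and 4 fell, and of 6 tested oligodendrocyte lineage markers 0 rose and 2 fell. In ESCs, 4 of the 8 pluripotent cell markers rose and 0 fell in TKO, with sums of 200547 and 231512 in TKO and 170028 to 188355 in WT. Of the 10 feeder and fibroblast markers 0 passed the test in ESCs, with sums of 6697 and 10917 in TKO and 7723 to 9093 in WT. The part of these other cells in the protocadherin levels was not tested, and in bulk samples fewer cells of a type and less RNA per cell cannot be told apart. Of the targeted genes, Tet1 and Tet3 fell in TKO in both cell types. Tet2 had 1146 and 1555 in TKO NSCs and 1276, 1295 and 1066 in WT NSCs, which overlapped and did not pass (log2 fold change 0.14, adjusted p = 0.459 by limma). In ESCs Tet2 had 1700 and 1661 in TKO and 2893, 2438 and 2156 in WT and fell by 0.56 (adjusted p = 0.00513 by limma). Which exons were deleted is not stated, so a whole-gene count does not check the knockout.

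In NSCs single members of the alpha and gamma clusters changed with the genotype, in both directions. The normalized counts of all 47 summed to 9156 and 10155 in TKO and to 9257, 10295 and 10233 in WT, which overlapped. Without Pcdhgc3, the most abundant member, which rose, the other 46 summed to 6024 and 6674 in TKO and to 7021, 7599 and 7645 in WT. Both TKO libraries then lay below the WT libraries. Leaving out a member that rose in the same libraries favours a lower TKO remainder, so nothing is read from that difference. No test was made of these sums. Of the 47, 3 rose and 3 fell in TKO, beside 18.2% and 19.5% of all 17744 genes tested (37.7% in either direction) and 41 did not pass. The share of members called, 6 of 47, lay below that background. Without the second TKO library 1 rose and 5 fell. The members that rose were Pcdhgb2, Pcdhgc3 and Pcdhgc5, all gamma, and those that fell were Pcdhac2 of the alpha cluster and Pcdhga9 and Pcdhgb6 of the gamma cluster. The median log2 fold change was -0.16 over the 47 and 0.0059 over all genes tested. All 47 passed the filter of a mean of at least 10, and their reads over the 5 libraries ran between 74 (Pcdha5) and 14298 (Pcdhgc3).

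**Figure D1:**
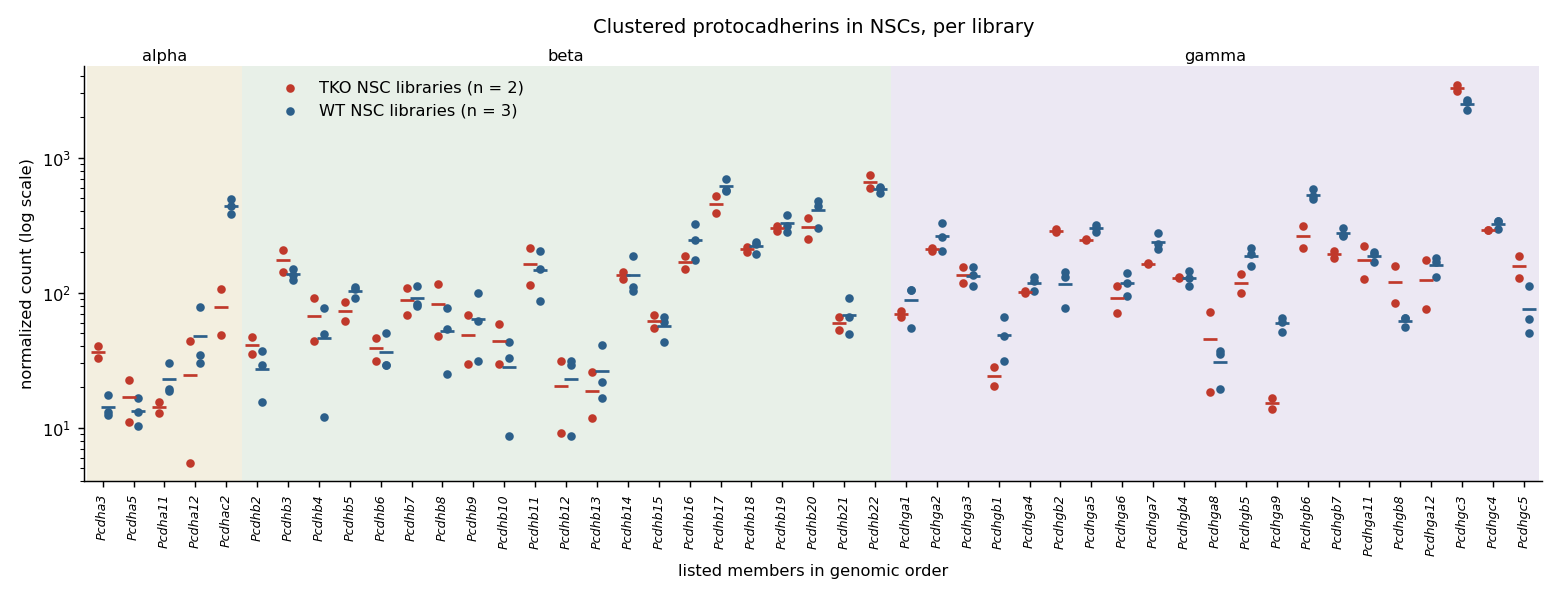
Normalized count (log scale) of each of the 47 listed members in every NSC library, in genomic order, with the clusters shaded. Red points are the 2 TKO libraries, blue points the 3 WT libraries, and short lines the group means. Pcdhgc3 stood highest, at 2236 to 3481, and Pcdhac2 was at 48.8 and 106.5 in TKO, below all 3 WT libraries.

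The alpha cluster differed most in its C-type gene. Pcdhac2, the C-type alpha gene nearest the constant exons, had 106.5 and 48.8 normalized counts in the TKO NSC libraries and 435, 384 and 491 in the WT libraries. Both TKO libraries lay far below the lowest WT library, and Pcdhac2 fell by 2.57 in log2 units (SE 0.31, adjusted p = 5.44e-05). It is best known for guiding the axons of serotonergic neurons. The 4 alternate alpha genes listed were low and none passed. Pcdha12, which adjoins the C-type genes, had 5.51 and 43.9 in TKO and 30.0, 34.6 and 77.7 in WT. The TKO lines stood 7.97 times apart in Pcdha12, the widest ratio between the TKO lines of any member, and the genotypes overlapped (log2 fold change -1.37, SE 0.79, adjusted p = 0.203). Without the first TKO library the log2 fold change was 0.02, and without the second it was -2.77 and passed (adjusted p = 0.0223).

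Pcdha3, an alternate alpha gene, went the other way, with 33.1 and 40.0 in TKO and 12.4, 12.99 and 17.5 in WT. The groups did not overlap, but the difference did not pass (log2 fold change 1.30, SE 0.60, adjusted p = 0.110). Summed over the 5 listed alpha genes, the normalized counts were 169 and 171 in TKO and 506, 475 and 623 in WT, and Pcdhac2 made up most of that sum in WT. The settings that decided which gene, if any, received reads over the shared constant exons were not stated in the sources used here. An alpha or gamma value can therefore hold such reads beside those of its own first exon.

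None of the 21 members of the beta cluster passed in NSCs by limma, where 0 rose and 0 fell, beside 18.2% and 19.5% of all genes tested. The normalized counts of the 21 summed to 2937 and 3502 in TKO and to 3104, 3541 and 3667 in WT. The median log2 fold change of the 21 was -0.07, with single values between -0.52 and 0.80. The most abundant was Pcdhb22, the last gene of the cluster, with 593 and 738 in TKO and 595, 550 and 608 in WT, which overlapped (log2 fold change 0.18, SE 0.14, adjusted p = 0.359). Pcdhb17 had 388 and 524 in TKO and 570, 700 and 574 in WT. Both TKO libraries were below the WT libraries in Pcdhb17, and the difference did not pass (log2 fold change -0.44, SE 0.17, adjusted p = 0.0629), though it did without the second TKO library (-0.65, adjusted p = 0.0270). Pcdhb20, next in level, had 357 and 251 in TKO and 303, 480 and 436 in WT (log2 fold change -0.41, SE 0.23, adjusted p = 0.194).

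Because a beta gene is a single exon, beta levels can be compared per length of the annotated gene. Per kb, the WT mean was highest for Pcdhb22, at 191, followed by Pcdhb17 at 188 and Pcdhb20 at 120, and lowest for Pcdhb13 at 7.13 and Pcdhb12 at 7.55. In TKO the same 3 genes led, with means of 217 for Pcdhb22, 140 for Pcdhb17 and 89.5 for Pcdhb20 per kb. Levels per kb tended to be higher towards the distal end, on the side of the gamma cluster. Not every distal gene was high, as Pcdhb21, next to the last, had means of 22.1 in TKO and 25.4 in WT. Across the 21 listed beta genes, the log2 level per kb rose with position in the cluster. The correlation was r = 0.51 and rho = 0.52 in TKO and r = 0.61 and rho = 0.58 in WT. The log2 fold change leaned the other way with position (r = -0.46, rho = -0.38). These are descriptions over 21 genes of the same libraries, with no test.

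**Figure D2:**
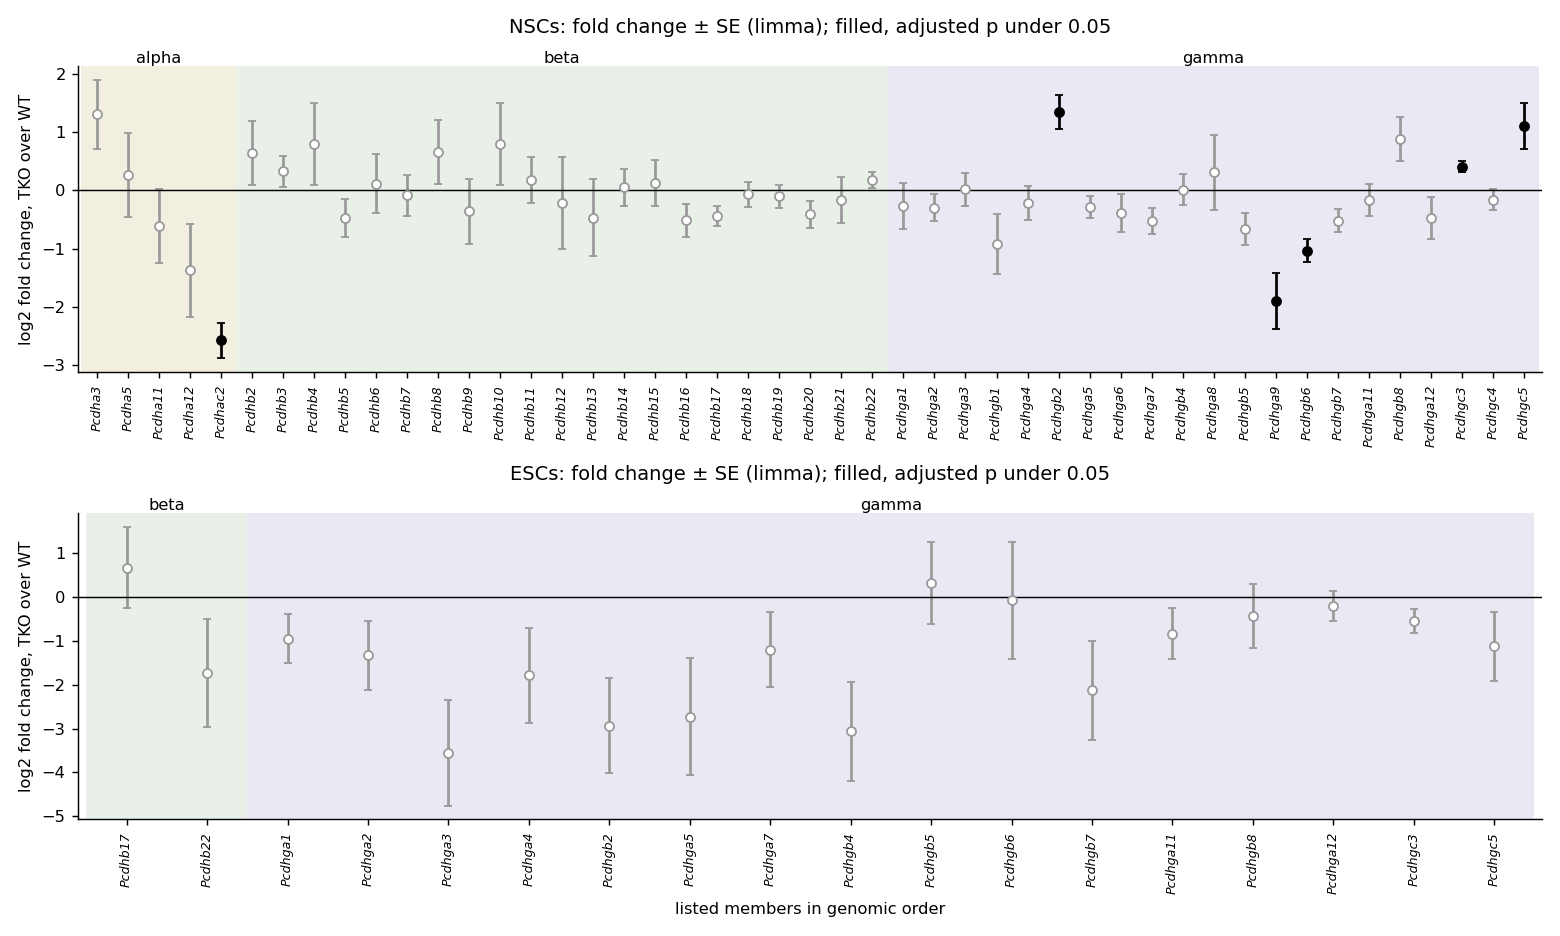
Log2 fold change of TKO over WT (± SE, limma) for each listed member in genomic order, in NSCs (upper panel, 47 members) and ESCs (lower panel, 18 members), with filled points where the adjusted p was under 0.05. In NSCs 6 points are filled, 1 alpha and 5 gamma, the lowest Pcdhac2 at -2.57 and the highest Pcdhgb2 at 1.34, and the beta members lie between -0.52 and 0.80; in ESCs 0 are filled.

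The gamma cluster held 5 of the 6 changed members, in both directions. Of its 21 listed members 3 rose and 2 fell, beside 18.2% and 19.5% of all genes tested (37.7% in either direction). The share of gamma members called lay below that background. The most abundant gamma gene in both cell types was Pcdhgc3, a C-type gene known for promoting dendrite branching in cortical neurons. Pcdhgc3 had 3133 and 3481 normalized counts in TKO NSCs and 2236, 2697 and 2588 in WT NSCs. Both TKO libraries were above all WT libraries, and it rose by 0.40 in log2 units (SE 0.09, adjusted p = 0.00602). The size of this change was small, and without the second TKO library it was 0.33 and did not pass (adjusted p = 0.0656). Pcdhgc3 alone made up 34.2% and 34.3% of the summed counts of all members in TKO, and 24.2%, 26.2% and 25.3% in WT.

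The other C-type gamma genes did not move with it in one way. Pcdhgc5, the C-type gene nearest the constant exons, had 186 and 129 in TKO and 64.1, 113 and 50.5 in WT. The groups did not overlap, with the lower TKO library close to the highest WT library, and Pcdhgc5 rose by 1.11 (SE 0.39, adjusted p = 0.0434). It no longer passed without either TKO library, and without WT replicate 1 or 3, where the log2 fold change lay between 0.84 and 1.37 and the adjusted p reached 0.251. Pcdhgc4, the gamma gene that interneurons need for survival, had 291 and 289 in TKO and 340, 338 and 297 in WT, and did not pass (log2 fold change -0.16, SE 0.18, adjusted p = 0.519).

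Of the 18 listed alternate gamma genes, 1 rose, 2 fell and 15 did not pass, beside 18.2% of all genes tested that rose and 19.5% that fell. Pcdhgb2, a B-type gene, had 294 and 282 in TKO and 143, 76.9 and 131 in WT. The TKO libraries were close together and above every WT library, and Pcdhgb2 rose by 1.34 (SE 0.30, adjusted p = 0.00425). Pcdhgb6, the most abundant B-type gene in WT NSCs, had 312 and 215 in TKO and 493, 516 and 586 in WT. It fell by 1.03 (SE 0.19, adjusted p = 0.00133), with no overlap. Its neighbour Pcdhga9 had 16.5 and 13.7 in TKO and 61.0, 65.0 and 51.5 in WT. All 3 WT libraries were more than 3 times as high as the TKO libraries, and Pcdhga9 fell by 1.90 (SE 0.48, adjusted p = 0.00885). The normalized counts of the 18 alternate gamma genes summed to 2440 and 2584 in TKO and to 3006, 3132 and 3007 in WT, so that TKO lay below WT. With the C-type genes included, the gamma cluster summed to 6050 and 6482 in TKO and to 5646, 6279 and 5943 in WT, which overlapped.

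Position did not order the gamma changes. Across the 18 alternate gamma genes the log2 fold change had r = -0.08 and rho = -0.15 with position, given as a description. Neighbouring genes could lean different ways without passing. Pcdhgb8, annotated as a transcribed pseudogene, had 83.6 and 157 in TKO and 65.1, 65.0 and 55.4 in WT. The adjoining Pcdhga12 had 174 and 75.1 in TKO and 167, 182 and 131 in WT, which overlapped. Neither passed, so no difference in direction is established for them. The TKO and WT libraries did not overlap for 18 of the 47 members, 5 higher and 13 lower in TKO, beside 30% and 29.9% of all genes tested (59.9% in either direction). By cluster these were 3 of 5 alpha, 2 of 21 beta and 13 of 21 gamma genes.

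**Figure D3:**
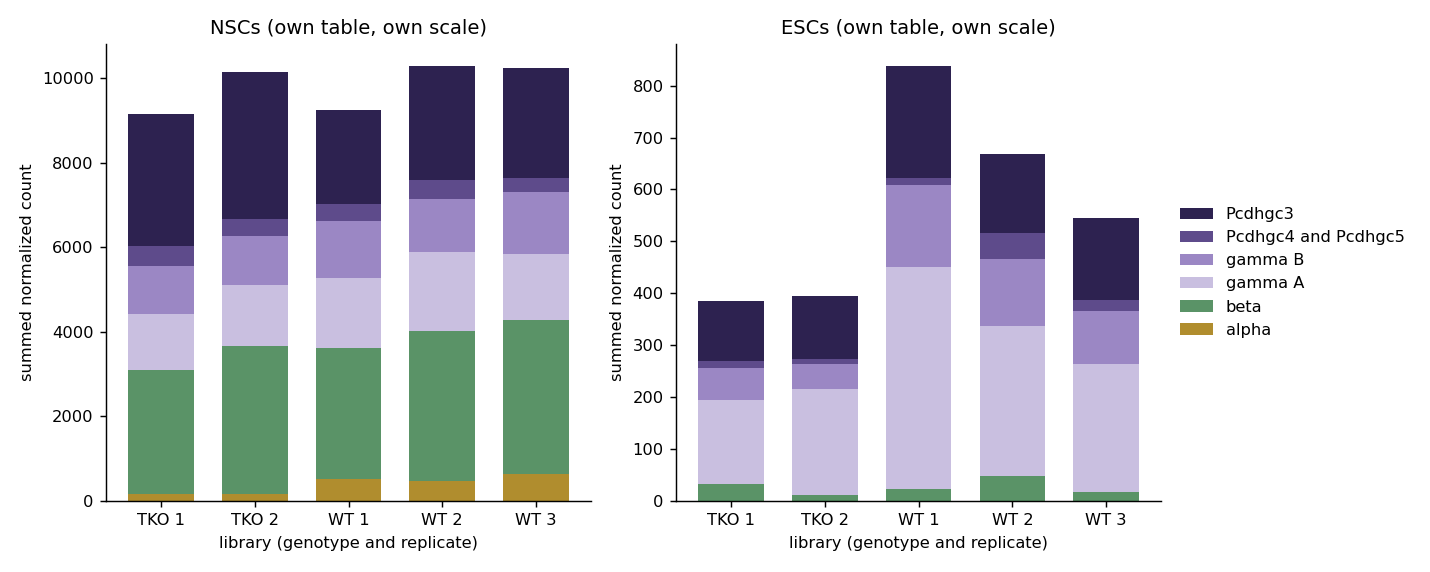
Summed normalized count of the listed members in each library, stacked by group, in NSCs (left, 47 members) and ESCs (right, 18 members); the tables have their own scales and the y axes differ. In NSCs the totals of TKO (9156 and 10155) and WT (9257 to 10295) overlap, while the alpha part is 169 and 171 in TKO and 475 to 623 in WT. In ESCs the totals are 386 and 394 in TKO and 546 to 838 in WT. Such low ESC genes can be listed through the group where they are higher, so nothing is read from that difference.

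The median spread between lines of the same genotype was lowest for the gamma members in both genotypes, and the order of alpha and beta differed between the genotypes. The median ratio of the higher to the lower TKO line in NSCs was 2.04 over the 5 alpha, 1.42 over the 21 beta and 1.21 over the 21 gamma members. Among the WT lines the median ratio of the highest to the lowest was 1.60 for alpha, 1.82 for beta and 1.33 for gamma. Pcdhb4 and Pcdhb10 had the widest WT ratios, 6.44 and 5.01, and both were low genes with at least 1 WT library under 12 normalized counts. With 2 TKO and 3 WT lines these ratios are not on the same footing, and no test was made of them.

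In ESCs the protocadherins were close to the detection limit and no member passed. The 18 listed members had between 56 (Pcdhgb6) and 769 (Pcdhgc3) reads over the 5 libraries, and 11 of them had fewer than 100, while the lowest total of any listed gene was 51 reads. Of the 18, 0 rose and 0 fell by limma's adjusted p, beside 7.29% and 7.02% of 17033 genes tested (14.3% in either direction); 3 had an unadjusted p under 0.05, all lower in TKO. DESeq2 called 0 with 6 at an unadjusted p under 0.05, and edgeR called 1, Pcdhga3, lower in TKO. The normalized counts of the 18 summed to 386 and 394 in TKO and to 838, 668 and 546 in WT, so that both TKO libraries lay below the WT libraries. The median log2 fold change was -1.16, against 0.0057 over all genes tested, and 16 of the 18 values were negative. A gene this low can be listed through the group where it is higher. The sums, the median and the count of negative values therefore support no change of the listed genes as a set. The libraries of the genotypes did not overlap for 9 of the 18, all lower in TKO and all gamma, beside 21.6% of all genes tested in that direction (21.9% higher and 43.4% in either). This count has the same limit, so nothing is read from it or from its direction.

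Pcdhgc3 was again the most abundant, with 115 and 121 normalized counts in TKO ESCs and 216, 151 and 158 in WT ESCs. The TKO values lay below all WT values, and the difference did not pass (log2 fold change -0.54, SE 0.28, adjusted p = 0.229). Pcdhga12, the last alternate gamma gene, had 80.7 and 136 in TKO and 162, 111 and 96.6 in WT, which overlapped (log2 fold change -0.20, SE 0.35, adjusted p = 0.765). Pcdhga11 had 35.6 and 20.2 in TKO and 87.8, 46.2 and 28.2 in WT (log2 fold change -0.83, SE 0.58, adjusted p = 0.380). Pcdhgc5 had 13.6 and 8.65 in TKO and 13.4, 51.3 and 22.1 in WT (log2 fold change -1.12, SE 0.79, adjusted p = 0.387). The 3 most abundant ESC members thus sat at the distal end of the gamma cluster. The beta members listed were the same pair that led in NSCs. Pcdhb17 had 27.2 and 9.61 in TKO and 19.1, 8.04 and 6.04 in WT, and Pcdhb22 had 4.19 and 1.92 in TKO and 3.82, 40.2 and 10.1 in WT; neither passed.

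The lowest adjusted p in ESCs belonged to Pcdhga3, with 0 and 1.92 in TKO and 19.1, 12.1 and 30.2 in WT (log2 fold change -3.56, SE 1.20, adjusted p = 0.0576). Its TKO values rest on 2 reads in all. Pcdhgb2 had 0 and 13.5 in TKO and 20.0, 34.2 and 32.2 in WT, and Pcdhgb4 had 6.29 and 0 in TKO and 17.2, 32.2 and 18.1 in WT. Each missed the threshold (both adjusted p = 0.081). Pcdhgb4 passed as lower without the first TKO library, and Pcdhgb2 without the second.

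An interaction test over the 15381 genes of both tables asked where TKO acted differently in NSCs than in ESCs. Of the 18 members, 4 had a higher effect in NSCs and 0 a lower one, beside 10.9% and 9.8% of all genes tested (20.7% in either direction). Pcdhga3 (2 reads in TKO and 62 in WT), Pcdhgb4 (6 in TKO and 68 in WT) and Pcdhgb2 (14 in TKO and 87 in WT) reached the ESC table, whose lowest total was 51 reads, through their WT libraries, which favours a higher effect in NSCs, so nothing is read from the count or its direction. Pcdhgb2 had the widest difference, 4.28 on the log2 scale (SE 1.15, adjusted p = 0.0171), with a fold change of 1.34 in NSCs and -2.93 in ESCs. Pcdhga3 differed by 3.58 (SE 0.84, adjusted p = 0.00812), with 0.02 in NSCs and -3.56 in ESCs, and Pcdhgb4 by 3.08 (SE 0.99, adjusted p = 0.0399), with 0.01 in NSCs and -3.06 in ESCs. These differences rest on ESC values of 14 reads or fewer in both TKO libraries together. Pcdhgc3, which is well counted in both, differed by 0.94 (SE 0.24, adjusted p = 0.0117), with 0.40 in NSCs and -0.54 in ESCs. The call of Pcdhgc3 was lost without the second TKO NSC library (0.87, adjusted p = 0.0599), that of Pcdhgb2 without either TKO NSC library (4.25 and 4.31, adjusted p = 0.0589 and 0.0508), and that of Pcdhgb4 in 8 of the 10 cases of leaving out 1 library, all but the first TKO and the first WT ESC library (adjusted p up to 0.130).

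NSCs were set against ESCs of the same genotype after scaling the reads of all 10 libraries together. Of the 18 members listed in both, 17 rose and 0 fell in TKO NSCs against TKO ESCs, beside 35.4% and 34.8% of all genes tested (70.2% in either direction), and 13 rose and 0 fell in WT NSCs against WT ESCs, beside 37.8% and 37.5% (75.3% in either direction). The protocadherins listed in NSCs alone, which include all alpha and 19 beta members, are outside these counts. Listing in both tables asks for reads in ESCs, so the 18 are the members with the most ESC signal. Some reached the ESC table mainly through their WT libraries, which favours a larger rise in TKO. Nothing is read from 17 in TKO against 13 in WT. Pcdhgc3 had 2653 and 2928 reads on the common scale in TKO NSCs, and 135 and 140 in TKO ESCs, and rose by 4.33 (SE 0.18, adjusted p = 5.88e-11). In WT it had 1909, 2298 and 2206 in NSCs and 253, 176 and 183 in ESCs, and rose by 3.40 (SE 0.15, adjusted p = 3.64e-11).

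The beta genes rose most in WT after Pcdhgb6. Pcdhb22 rose by 7.003 (SE 0.73, adjusted p = 6.78e-07) in TKO and 5.06 (SE 0.60, adjusted p = 1.89e-06) in WT, and Pcdhb17 by 4.26 (SE 0.55, adjusted p = 6.35e-06) in TKO and 5.39 (SE 0.45, adjusted p = 3.96e-08) in WT. Pcdhgb6 rose by 4.69 in TKO and 5.67 in WT, and Pcdhga5 by 6.48 in TKO and 3.94 in WT. In ESCs Pcdhb22 had 6 reads in TKO and 54 in WT, and Pcdhga5 had 4 in TKO and 54 in WT. The larger rises of Pcdhb22 and Pcdhga5 in TKO rest on these few TKO reads. The exception in both genotypes was Pcdhga12. It had 147 and 63.2 reads on the common scale in TKO NSCs against 94.4 and 157 in TKO ESCs, and 143, 155 and 112 in WT NSCs against 190, 129 and 112 in WT ESCs. The cell types overlapped in both genotypes, and Pcdhga12 did not pass (log2 fold change -0.33, adjusted p = 0.513 in TKO; -0.05, adjusted p = 0.904 in WT). With equal library totals, which moves the median of all genes to 0.39 in TKO and 0.33 in WT, its values were 0.06 and 0.28, below those medians. In WT, Pcdhga1, Pcdhgb2, Pcdhgb8 and Pcdhgc5 did not pass either, among which Pcdhgc5 had 54.7, 95.9 and 43.0 in NSCs and 15.7, 59.7 and 25.7 in ESCs (log2 fold change 1.05, SE 0.53, adjusted p = 0.0850).

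**Figure D4:**
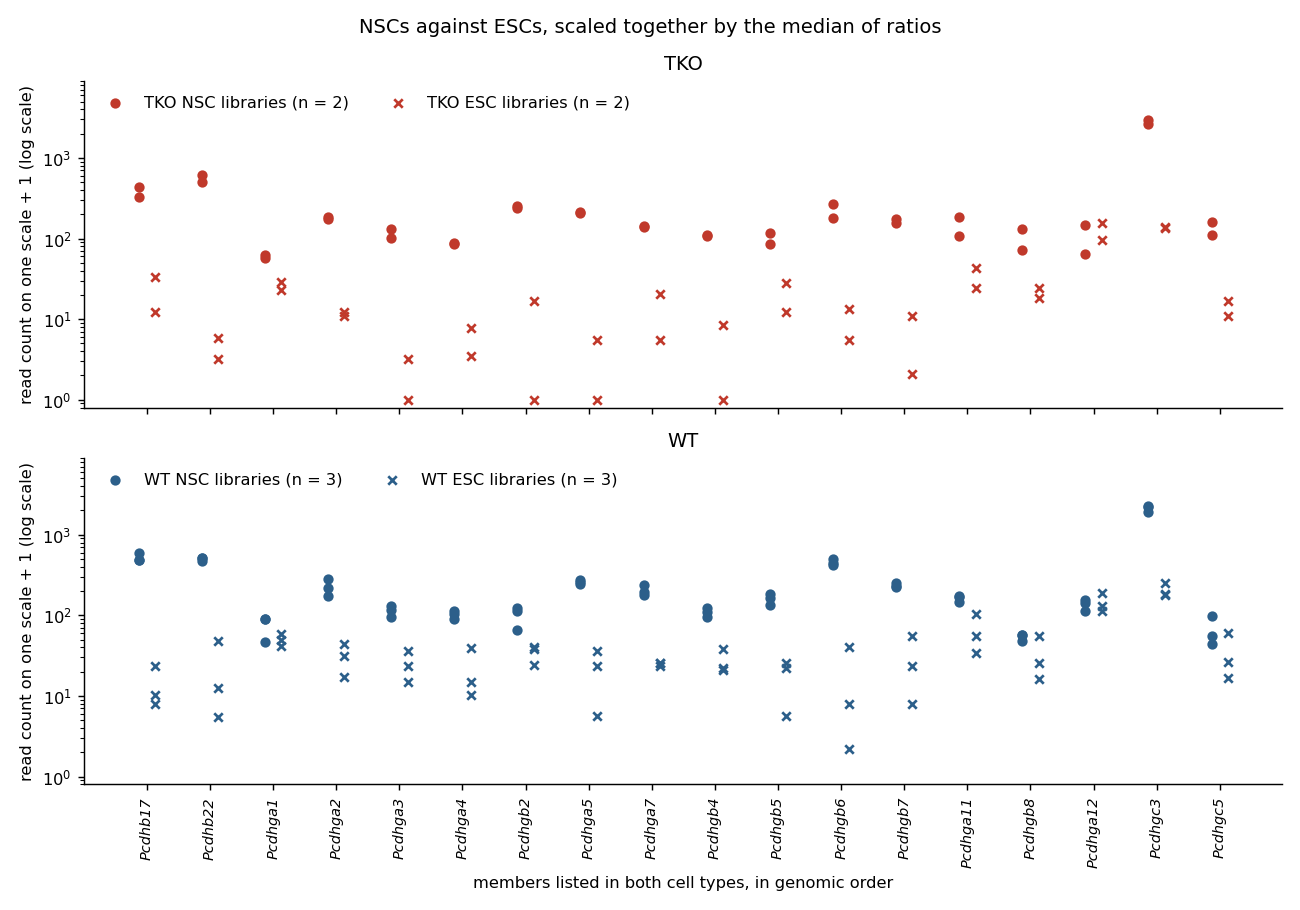
Read count on one scale for all 10 libraries, plus 1 (log scale), of the 18 members listed in both cell types, in TKO (upper panel) and WT (lower panel). Dots are NSC and crosses ESC libraries; Pcdhgc3 is at 2653 and 2928 in TKO NSCs against 135 and 140 in TKO ESCs, and Pcdhga12 is the member whose dots and crosses overlap in both genotypes.

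Genes that act on the clusters or beside them were read from lists, whose counts in NSCs stand beside the 18.2% of all genes that rose and the 19.5% that fell. Of 17 tested genes of CTCF, cohesin and its loaders, 2 rose (11.8%) and 5 fell (29.4%) in TKO NSCs. Ctcf, whose protein binds beside protocadherin promoters and enhancers, averaged 5143 ± 38.5 normalized counts in TKO and 5856 ± 189 in WT (SD, n = 2 TKO and 3 WT) and fell by 0.19 (adjusted p = 0.0378 by limma). Rad21, a cohesin subunit, averaged 10202 ± 743 in TKO and 14226 ± 458 in WT and fell by 0.48 (adjusted p = 1.23e-04 by limma), and Wapl, which releases cohesin, did not pass (-0.05, adjusted p = 0.598). Esco2 fell by 0.65, Smc1a by 0.37 and Smc3 by 0.21, while Ldb1 rose by 0.31 and Mau2 by 0.23.

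Of 23 genes that silence promoters, 6 rose (26.1%) and 3 fell (13%) in TKO NSCs, not far from the shares over all genes. Dnmt3b, the methyltransferase that methylates alternate protocadherin promoters in the embryo, averaged 2814 ± 991 in TKO and 537 ± 85.0 in WT and rose by 2.35 (adjusted p = 3.72e-06 by limma). Dnmt3l, its cofactor, averaged 133 ± 30.4 in TKO and 5.53 ± 1.43 in WT and rose by 4.36. Both are abundant in ESCs, where Dnmt3b averaged 32951 ± 812 in TKO and 34920 ± 691 in WT, and Dnmt3l 14814 ± 361 in TKO and 13646 ± 523 in WT (SD, n = 2 TKO and 3 WT). In TKO NSCs both were higher in the first library (3515 and 2113 for Dnmt3b, 154 and 111 for Dnmt3l), as was the summed level of the pluripotent cell markers (5084 and 2979 in TKO, 1071 to 1307 in WT), whose part in these changes was not tested. Dnmt3a rose by 0.45 and Rest by 0.33, Ezh2 fell by 0.60, and Smchd1, which represses the clusters, did not pass (-0.13, adjusted p = 0.227). In ESCs, beside 7.29% of all genes that rose and 7.02% that fell, 1 of 18 of the first list rose and 3 fell, with Ctcf lower by 0.31 (adjusted p = 0.0246), and 3 of 23 of the silencing list rose and 6 fell, with Smchd1 lower by 0.40 (adjusted p = 0.0459). The sizes in ESCs were under 1 on the log2 scale for all genes of these lists that passed. Ctcfl of the first list averaged 46.4 ± 7.81 in TKO ESCs and 8.95 ± 8.99 in WT ESCs. It did not pass (log2 fold change 2.67, adjusted p = 0.0607 by limma).

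Of 25 genes for binding partners and signalling, 5 rose and 5 fell in TKO NSCs (20% each), close to the shares over all genes. Ptk2b, which encodes a kinase that gamma protocadherins inhibit, rose by 1.36 (adjusted p = 0.00114). Psen2 of the protease that cuts protocadherins rose by 0.60, Nlgn2 by 0.55 and Brk1 of the WAVE complex by 0.51, while Cntnap2 fell by 0.49 and Cyfip1, also of the WAVE complex, by 0.39. The protocadherins outside the clusters, which lack the shared promoter arrangement, were 12 in number: 8 rose (66.7%, beside 18.2% of all genes), 0 fell and 4 did not pass in TKO NSCs, with a median log2 fold change of 0.76, against 0.0059 over all genes tested. Pcdh18 averaged 4875 ± 69.9 in TKO and 2234 ± 105 in WT and rose by 1.13 (adjusted p = 7.58e-07 by limma). Pcdh20 rose by 2.51, Pcdh9 by 1.48 and Pcdh17 by 1.18, and Pcdh12 averaged 92.6 ± 50.9 in TKO against 0.689 ± 1.19 in WT. Pcdh12 was thus listed, and kept by the filter, through its TKO libraries, which favours a rise. The count and the median of the 12 are not free of that selection. In ESCs 6 were tested, and 0 rose and 0 fell. Of 20 neighbours of the clusters on chromosome 18, 5 rose (25%) and 0 fell in TKO NSCs, among them Arap3 by 3.02 and Diaph1, just beyond the gamma cluster, by 0.40. Over the 408 other chromosome 18 genes in NSCs, the median difference from WT was -0.029 and -0.030 in the TKO libraries.

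Contacts of the locus were read from the pcHiC lists of the 1 TKO and 1 WT NSC library, in which each loop joins a pair of restriction fragments and carries a score given by the authors, of at least 5.0. On mm10 the alpha cluster spans chr18:36930285-37188897, the beta cluster chr18:37264998-37521419 and the gamma cluster chr18:37661775-37841873. Counting a pair once, 160 pairs in TKO and 167 in WT had an anchor in the clusters or between them, of 51122 and 51990 pairs in all. The same pair was found in both libraries 46 times, which is 28.8% of the TKO and 27.5% of the WT pairs of the locus. Over all pairs 14685 were in both, 28.7% of TKO and 28.2% of WT, so most listed pairs of either library were absent from the other across the genome as well. With 1 library per genotype there is no replicate spread and no test, and a pair absent from a list is one that did not reach its minimum score.

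Both libraries showed the same broad layout. Fragments of the alpha cluster were joined to the region between alpha and beta by 12 pairs in TKO and 14 in WT, all from a fragment with the start of an alpha gene. They were joined to the beta cluster by 20 pairs in TKO and 26 in WT, of which 18 in TKO and 23 in WT came from such a fragment, and 7 in each library ended on the fragment of the first beta gene, Pcdhb1. Fragments of the beta cluster were joined to the gamma cluster by 26 pairs in TKO and 32 in WT, of which 23 in TKO and 30 in WT came from a fragment with the start of a beta gene. To the stretch downstream of gamma they were joined by 25 pairs in TKO and 28 in WT, all from such a fragment. Capture asks for a promoter at an end of each pair. That pairs came from fragments with a gene start is therefore largely set by the method and is no result. Alpha was joined to gamma by 2 pairs in TKO and 3 in WT, and to the stretch downstream of gamma by 0 in TKO and 1 in WT. Pairs within alpha numbered 20 in TKO and 8 in WT, and pairs within gamma 3 in TKO and 13 in WT, the widest differences of any zone. These counts are small, and their call in other libraries was not tested.

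The contact with the highest score of the locus in TKO joined the fragment with the start of Pcdha12 to a fragment between the alpha and beta clusters. The Pcdha12 fragment (chr18:37016392-37021876) and its partner (chr18:37216314-37221325) lie 200 kb apart, and the pair scored 28.42 in TKO and 15.41 in WT, where the highest score of the locus was 20.73. A distal enhancer of the alpha cluster is known downstream of its constant exons, and the files do not say which fragment holds it. The same partner fragment was joined to Pcdha4 with a score of 7.07 in TKO and 6.54 in WT, to Pcdha11 with 8.93 in TKO and 6.86 in WT, to Pcdha10 with 5.19 in TKO and 10.29 in WT, and to Pcdhac1 in WT only in these lists, with 11.92. The Pcdha12 fragment had the most pairs of any member in either library, 19 in TKO and 14 in WT (equal there to Pcdhb17).

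A second hub joined beta promoters to fragments within Diaph1, downstream of gamma, the side on which the shared enhancers of beta and gamma are known to lie. The Pcdhb17 fragment (chr18:37481508-37486587) was joined to chr18:37876867-37882063 with a score of 15.89 in TKO and 20.73 in WT, and to the next fragment, chr18:37882064-37887186, with 19.97 in TKO and 15.22 in WT. The order of these adjoining partners was thus opposite in the libraries. Pcdhb21 was joined to the first of them with 12.46 in TKO and 19.83 in WT, and Pcdhb22 to the second with 9.71 in TKO and 10.20 in WT. Pcdhb16 was joined to the second with 9.78 in TKO and 12.20 in WT. To the first, Pcdhb16 was joined with 13.37 and Pcdhb22 with 5.16 in WT only in these lists. Their levels per kb in NSCs differed widely, with means of 140 in TKO and 188 in WT for Pcdhb17, 217 in TKO and 191 in WT for Pcdhb22, 31.9 in TKO and 46.9 in WT for Pcdhb16, and 22.1 in TKO and 25.4 in WT for Pcdhb21. Across the 21 listed beta genes, the level per kb and the number of pairs of the gene's start fragment had r = 0.22 and rho = -0.0059 in TKO, and r = 0.52 and rho = 0.46 in WT, given as a description.

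**Figure D5:**
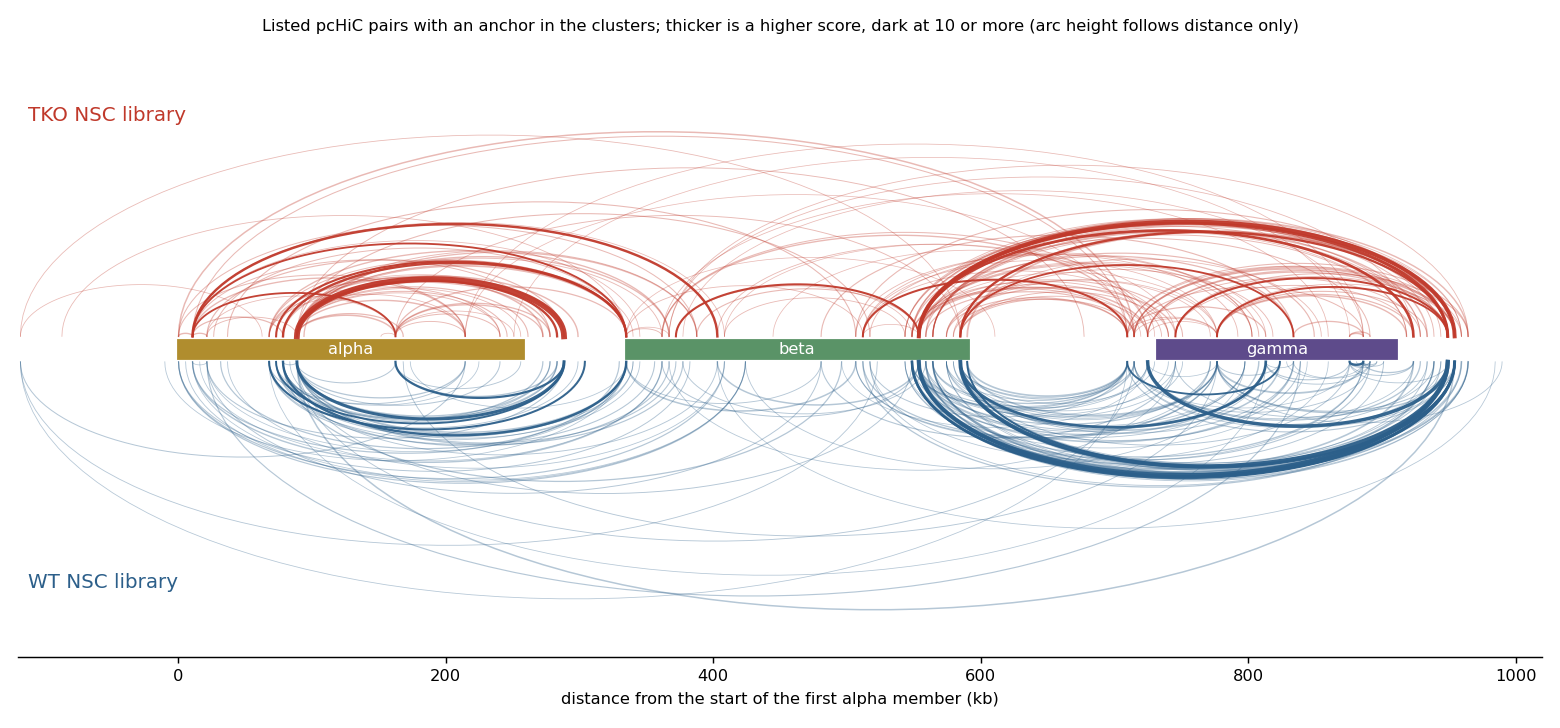
Listed pcHiC pairs with an anchor in the clusters, drawn by distance in kb from the start of the first alpha member, in the TKO NSC library (above, 158 of 160 pairs drawn) and the WT NSC library (below, 166 of 167); pairs reaching beyond the axis are left out. Thicker lines have higher scores and dark lines a score of at least 10. Both libraries show 1 bundle from distal alpha to the stretch before beta and 1 from distal beta to the stretch after gamma. Dark pairs from alpha to the stretch before beta number 2 in TKO and 4 in WT, and from beta to the stretch after gamma 4 and 7. From alpha into beta they number 4 in TKO and 1 in WT, and from gamma to the stretch after it 2 and 0.

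The start fragments of 50 of the 58 annotated members took part in at least 1 pair, 44 in TKO and 45 in WT. The number of pairs was higher in TKO for 18 members, equal for 15 and lower for 25. The equal ones include the members in no pair of either library. Pcdhgb7 and Pcdhga11 share a start fragment, as do Pcdhgb8 and Pcdhga12, so their pairs are counted for both genes. Chromosome 18 as a whole had 1059 pairs in TKO and 1186 in WT, and the same count over other promoters was not made. Nothing is read from 25 against 18. Among the members whose RNA changed, Pcdhac2, which fell, had 7 pairs in TKO and 3 in WT, and Pcdhgb6, which fell, had 2 in TKO and 7 in WT. Pcdhgc3, which rose, had 3 in TKO and 8 in WT, and Pcdhgc5, which rose, had 2 in TKO and 6 in WT. Pcdhga9, which fell, had 1 in each, and the fragment with the start of Pcdhgb2 was in 0 pairs of both; the lists do not say whether it was captured. Fewer pairs thus went with either direction of RNA change. Pcdhgc3 and Pcdhgc4 were joined to each other with a score of 8.13 in TKO and 12.45 in WT. Over the 47 listed members the log2 fold change and the difference in pairs (TKO minus WT) had r = -0.29 and rho = -0.23, a weak relation that is no finding.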

How the data were processed

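RNA-seq of 10 libraries (2 TKO and 3 WT lines in each of NSCs and ESCs) and pcHiC of 2 NSC libraries were used; bisulfite and CUT&Tag samples are not analysed here. The submitters' processing notes name STAR 2.7.3a, Trim Galore 0.6.5, DESeq2 1.40.2, featureCounts and the mm10 build. The deposited expression values are a signal: the authors divided counts per gene by DESeq2 size factors, per the labels, separately for NSCs and ESCs. All values (100%) came out as whole reads within 1e-06. Between 75.2% and 82.7% of values of up to 20 reads were even, as counts of both mates are. Settings for strand and for reads that map to several places were not stated in the sources used here. The pcHiC lists hold the authors' own score per loop, per the file contents; no caller is named in the sources used here.

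limma 3.58.1 (trend, two-sided) was fitted to log2(value + 1) of all genes with a mean of at least 10, and checked on simulated data. For NSCs against ESCs the recovered reads of all libraries got joint median-of-ratios factors. edgeR 4.0.16 and DESeq2 1.42.0 on recovered reads, other pseudocounts (0.5, 5), filters (none, 50), equal library totals, a replicate block, chromosome centring and leaving out each library were alternatives. Members named with values were C-type genes, those that passed, and the 3 highest per cluster. Pcdhb4, Pcdhb10, Pcdhb12, Pcdhb13, Pcdhb16, Pcdhb21, Pcdhgb8 and the low ESC genes named for their p were added after their values were seen. Members and lists were chosen with earlier results of these data known. Lines serve as replicates.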

Additional observations from a re-analysis of the deposited data

Results flagged for a closer look

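For 4 members the effect of TKO differed between NSCs and ESCs by limma's interaction test, each higher in NSCs. The difference was 4.28 on the log2 scale for Pcdhgb2, 3.58 for Pcdhga3, 3.08 for Pcdhgb4 and 0.94 for Pcdhgc3. In ESCs, Pcdhgb2 and Pcdhgb4 were each at 0 in 1 TKO library and above 17 normalized counts in all 3 WT libraries. Pcdhga3 was at 0 and 1.92 in TKO and between 12.1 and 30.2 in WT. These 3 genes, with 14 or fewer reads in TKO, reached the ESC table through their WT libraries, which favours this direction. The call of Pcdhgb4 was lost in 8 of the 10 cases of leaving out 1 library. Groups of 2 and 3 libraries are too small to look for single libraries that stand apart.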

How the results depend on the processing

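Of 928 values of the named members under alternatives, 890 kept their direction and their side of the threshold, 17 lost it, 8 gained it and 13 reversed. In ESCs the count of members that fell was 0 in the report, 1 with edgeR, and between 0 and 1 when a library was left out. In NSCs the count that rose lay between 1 and 3 and the count that fell between 3 and 5 when a library was left out, with 1 and 5 without the second TKO library. The count of members with a higher effect in NSCs than in ESCs lay between 1 and 6, with 1 without the second and 2 without the first TKO NSC library and 6 without the first WT ESC library. Leaving out libraries gave log2 fold changes of TKO over WT between -2.77 and 0.020 for Pcdha12 in NSCs, between -0.032 and 1.38 for Pcdhb17 in ESCs and between -0.57 and 0.17 for Pcdhga12 in ESCs. It gave interactions between -0.87 and 0.33 for Pcdhga12 and between -2.02 and 0.029 for Pcdhgb6, and values of NSCs over ESCs between -0.93 and 0.27 in TKO and between -0.21 and 0.17 in WT for Pcdhga12. With equal library totals Pcdhga12 was at 0.061 in TKO and 0.28 in WT NSCs over ESCs, and 7069 genes rose and 3859 fell in TKO (7208 and 4544 in WT), against 5439 and 5359 in TKO (5815 and 5769 in WT) in the report. At a score of at least 7, 57 pairs in TKO and 56 in WT had an anchor in the locus, and at 10 or more 16 in each. The cause of these changes was not tested. Chromosome centring was added after seeing the data.

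Same-numbered TKO and WT libraries deviated with correlations between -0.021 and 0.0075. This measure gave only 0.030 for the NSC and ESC libraries of the same TKO line, so it cannot show whether same-numbered libraries were paired. With the replicate block, 2 members rose and 4 fell in NSCs: Pcdhgc5 was lost (0.86, adjusted p = 0.115) and Pcdhb17 gained (-0.49, adjusted p = 0.0367). With the line as a block, 16 members rose in TKO NSCs against TKO ESCs. Low counts limit what can be seen in ESCs.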
